A study of Mus musculus with 6 samples.

Results

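Inflammasomes are cytosolic complexes that cells of the innate immune system build on sensing infection or damage. A sensor such as NLRP3 or AIM2 recruits the adaptor ASC, which is encoded by Pycard, and the adaptor recruits caspase-1. Caspase-1 cuts the precursors of interleukin-1 beta and interleukin-18 and the pore-forming protein gasdermin D, whereas the mouse caspase encoded by Casp4 (caspase-11) opens the noncanonical route by cutting gasdermin D after it binds bacterial lipopolysaccharide. Caspase-8 acts in death receptor signalling and can stand in for caspase-1. Interleukin-33 is a nuclear alarmin of the same cytokine family that is released from damaged cells and needs no inflammasome. In the brain, microglia are the cells usually held to carry inflammasomes, and interleukin-33 is known as a product of glia.

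The 10 genes described here are these inflammasome genes with Il18 and Il33: the sensors Nlrp3 and Aim2, the adaptor Pycard, the caspases Casp1, Casp4 and Casp8, the effector Gsdmd, and the cytokines Il1b, Il18 and Il33. They were chosen by symbol from the 32285 genes of the deposited matrices, and all 10 were found. The series title concerns interleukin-1 beta maturation by the noncanonical route in microglia and interleukin-1 receptor signalling in neurons in chronic kidney disease. The mice were wildtype C57BL/6, and nuclei of their brains were sorted by flow cytometry. The sham group had sham surgery and the nephrectomy group had 5/6 nephrectomy, a removal of most kidney tissue that serves as a model of chronic kidney disease, both 6 weeks before the tissue was taken. Each group had 3 libraries. The labels give no age, sex or gate for the sort and do not say whether every library is an animal of its own, so p-values measure only the spread between these libraries, which may be technical.

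The libraries held 15691316 to 41532967 UMIs (counts of single RNA molecules) over 42589 barcodes, and 40685 barcodes passed the limits of 500 genes as a minimum and 5% mitochondrial UMIs as a maximum. A nucleus took a class from the UMIs of fixed marker panels, none of which contains a member, and 21718 kept nuclei (53.4%) took one. A further 11894 met the limits of 1 panel but held under 3 times the UMIs of the next panel, and were left out of the classes. Sham 3 and nephrectomy 1 stood apart from the others, with 14756 and 12637 barcodes against 2637 to 5033, and nephrectomy 1 had a median of 1001 UMIs per kept nucleus against 2008 to 5354 (sham 1 was highest). Its share of gated nuclei was 33.0%, against 52.2% to 80.1% in the other libraries. The text of the series places the tissue in the cortex, but 5272 nuclei met the panel of striatal projection neurons, a cell type of the striatum. Only 169 barcodes occurred in more than 1 library. Of the UMIs of each member in kept nuclei, 30.6% (Casp4) to 50.7% (Nlrp3) fell in gated nuclei.

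The members lie on 7 chromosomes of GRCm38 in GENCODE M21, and all are protein coding. Il1b (ENSMUSG00000027398) is at chromosome 2, 129364570 to 129371139, on the minus strand. Il18 (ENSMUSG00000039217) is at chromosome 9, 50554827 to 50581840, and Il33 (ENSMUSG00000024810) at chromosome 19, 29925114 to 29960718, both on the plus strand. Nlrp3 (ENSMUSG00000032691) is at chromosome 11, 59541568 to 59566956, and Aim2 (ENSMUSG00000037860) at chromosome 1, 173350879 to 173466040, both on the plus strand. Pycard (ENSMUSG00000030793) is at chromosome 7, 127989708 to 127993867, on the minus strand. Casp1 (ENSMUSG00000025888) and Casp4 (ENSMUSG00000033538) are neighbours on the plus strand of chromosome 9, at 5298517 to 5307265 and 5308828 to 5336783. Casp8 (ENSMUSG00000026029) is at chromosome 1, 58795374 to 58847503, and Gsdmd (ENSMUSG00000022575) at chromosome 15, 75862327 to 75867408, both on the plus strand. Aim2 shares 16817 bases with Cadm3 on the other strand, and Il18 shares 4507 bases with Tex12 and 355 with Bco2 on the other strand. Introns were counted, and the sources used here do not state whether the counting used strand, so reads of such pairs could be exchanged.

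The 250 bases before annotated starts are shown for the cytokine genes that were carried by macroglia and for 2 of the genes highest in microglia-like nuclei. These groups differ in the class that held them, but the 2 are also the only members with the second motif marked. The sequences are RefSeq promoters of GRCm38.p6, written 5′ to 3′ along the gene's strand, with capitals marking TATAAA or GAGGAAGT, a core bound by the myeloid factor PU.1, on either strand. Il33 has 2 starts in the table, which give transcripts of the same gene that 3′ counts cannot tell apart.
Il18, chr9:50554450-50554699, plus strand: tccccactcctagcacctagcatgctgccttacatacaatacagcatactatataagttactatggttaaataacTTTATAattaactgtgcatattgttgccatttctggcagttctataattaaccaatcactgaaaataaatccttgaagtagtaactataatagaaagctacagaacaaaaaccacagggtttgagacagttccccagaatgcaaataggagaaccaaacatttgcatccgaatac
Il33, chr19:29924863-29925112, plus strand: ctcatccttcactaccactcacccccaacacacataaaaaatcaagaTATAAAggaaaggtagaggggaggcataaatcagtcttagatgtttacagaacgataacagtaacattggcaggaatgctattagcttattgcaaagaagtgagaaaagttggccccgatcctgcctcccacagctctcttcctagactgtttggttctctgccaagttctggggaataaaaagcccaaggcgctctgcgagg
Il33, chr19:29945540-29945789, plus strand: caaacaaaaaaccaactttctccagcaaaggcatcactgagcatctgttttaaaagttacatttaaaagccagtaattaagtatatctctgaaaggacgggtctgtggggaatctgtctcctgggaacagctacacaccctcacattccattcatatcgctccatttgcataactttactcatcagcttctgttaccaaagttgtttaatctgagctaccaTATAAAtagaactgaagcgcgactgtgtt
Aim2, chr1:173420354-173420603, plus strand: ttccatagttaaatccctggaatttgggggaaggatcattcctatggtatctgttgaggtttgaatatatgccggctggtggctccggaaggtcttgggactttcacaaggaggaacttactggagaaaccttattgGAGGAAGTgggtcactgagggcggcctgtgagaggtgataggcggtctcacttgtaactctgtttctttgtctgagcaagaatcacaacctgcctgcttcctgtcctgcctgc
Pycard, chr7:127993868-127994117, minus strand: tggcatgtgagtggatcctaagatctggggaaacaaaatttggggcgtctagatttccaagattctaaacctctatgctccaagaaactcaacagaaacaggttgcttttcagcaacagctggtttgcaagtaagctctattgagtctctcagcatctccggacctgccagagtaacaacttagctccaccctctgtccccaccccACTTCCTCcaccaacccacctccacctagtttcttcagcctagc

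The table held 12 promoters for 9 of the members. GAGGAAGT occurred in those of Aim2 (113 bases before the start) and Pycard (44 bases, on the reverse strand), and in 2.44% of all 32851 promoters of this length. The promoters of Casp1, Casp4, Casp8 and Nlrp3, also highest in microglia-like nuclei, held neither motif marked. TATAAA occurred in those of Il1b, Il18 and both Il33 starts, and in 12.4% of all promoters. It lay 29 bases before the second Il33 start and 31 bases before that of Il1b. Before the first Il33 start it lay at 203 bases, and before that of Il18 at 175 bases on the reverse strand. Of the other motifs searched, GAGGAA occurred in the promoters of Aim2, Casp1, Nlrp3 and Pycard (23.3% of all promoters), AGGAAGT in those of Aim2 and Pycard (7.69%), ACAAAG, a core of SOX factors, in those of Aim2 and Casp1 (16.5%), and a consensus site of NF-kappaB in none (0.14%). All were searched on both strands, and those shown in capitals were chosen after their matches were seen. GAGGAA and AGGAAGT overlap GAGGAAGT. A match is a description of these letters, not a site in use.

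Il18 was highest in astrocyte-like nuclei and Il33 in oligodendrocyte-like nuclei, while Nlrp3, Aim2, Pycard, Casp1, Casp4, Casp8 and Gsdmd were all highest in microglia-like nuclei, among the 8 classes large enough to test. Il1b was almost absent from every class. Levels are given in CPM, a gene's UMIs relative to the total UMIs of that class in that library. Each class was tested against the equally weighted mean of the other 7 with edgeR's quasi-likelihood test on sums per library and class, with library as a block and Benjamini-Hochberg adjustment over 13979 genes. Of the 9 members past the low-count filter, 7 passed as higher in microglia-like nuclei, where 12.3% of all tested genes did. A gene that is high in 1 class can pass the filter through that class alone (77.1% of the gated UMIs of Nlrp3 were there), so this count supports nothing by itself. Fitted without the filter, 7 of the 10 members were higher there, where 6.92% of 25803 genes were. The corresponding numbers were 3 in endothelial-like nuclei (Casp8, Casp4 and Gsdmd, background 12.1%), 3 in oligodendrocyte-like nuclei (Il33, Aim2 and Il18, background 22.3%) and 2 in astrocyte-like nuclei (Il18 and Il33, background 24.1%). Oligodendrocyte precursor-like nuclei were higher in Il18 (background 14.2%) and striatal projection neuron-like nuclei in Pycard (background 31.3%). No member passed as higher in excitatory neuron-like nuclei (background 33.9%) or in the other GABA neuron-like nuclei (background 28.1%). The share of all genes called lower, against which the lower members below are to be read, was 21.1% in excitatory neuron-like, 19.4% in striatal projection neuron-like, 13.2% in other GABA neuron-like, 14.1% in astrocyte-like, 15.8% in oligodendrocyte-like and 9.61% in precursor-like nuclei.

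**Figure D1:**
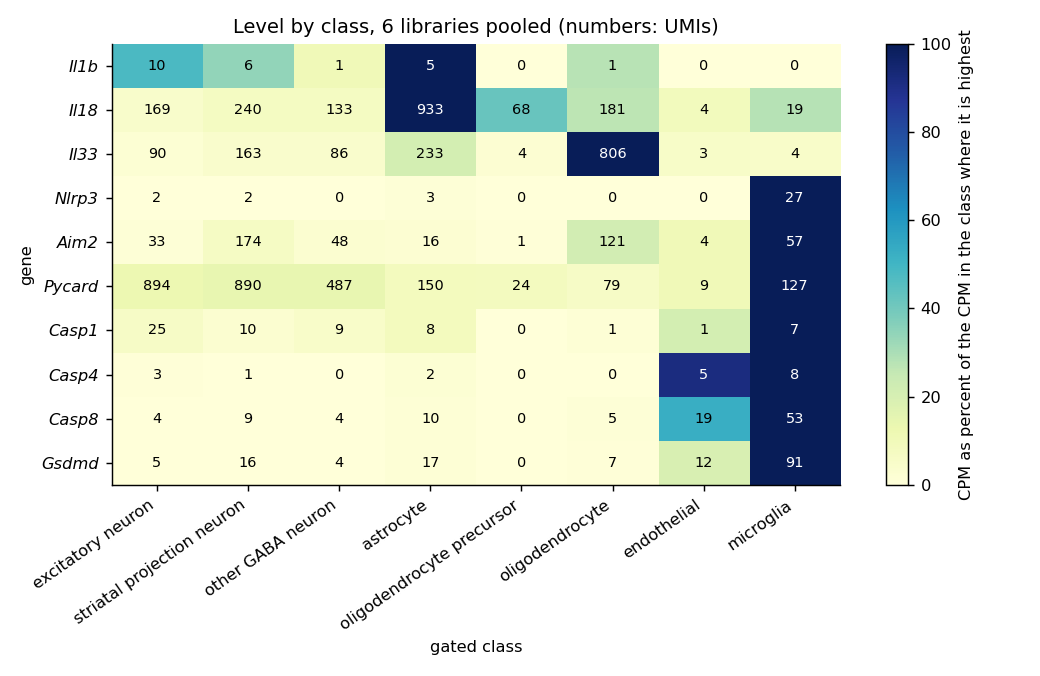
Level of the 10 members (rows) in the 8 tested classes (columns), 6 libraries pooled. Colour gives CPM as a percent of the CPM in the class where that gene is highest, and the numbers are UMIs. Il18 and Il33 are darkest in astrocyte-like and oligodendrocyte-like nuclei and 7 other genes in microglia-like nuclei, whereas Il1b gave 5 UMIs in its highest class and 10 UMIs in the much larger excitatory neuron-like class.

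The classes differed in size, which sets the precision. Astrocyte-like nuclei numbered 2600 with 6449056 UMIs in all, oligodendrocyte-like nuclei 2629 with 4655252, and microglia-like nuclei 400 with 467725, of which each library gave 23 to 153 nuclei. A count of 3 UMIs over all libraries, the limit that a count of 0 allows, corresponds to 0.465 CPM in astrocyte-like and to 6.41 CPM in microglia-like nuclei. Such limits and the intervals below cover counting error only. Endothelial-like nuclei (261) entered tests in 2 libraries per group, because sham 1 held 8 and nephrectomy 1 held 13.

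Il18 encodes a cytokine that caspase-1 activates. In astrocyte-like nuclei it stood at 139, 170 and 130 CPM in sham 1 to 3 and at 115, 153 and 163 CPM in nephrectomy 1 to 3, from 933 UMIs. The groups overlapped, with the highest library in sham and the lowest in nephrectomy. Against the other classes the log2 difference in level was 3.14 ± 0.17 (SE, edgeR adjusted p = 8.52e-20). The next class was oligodendrocyte precursor-like nuclei at a pooled 60.7 CPM, 1.36 ± 0.34 above the other classes on the log2 scale (edgeR adjusted p = 0.0023), followed by oligodendrocyte-like nuclei at 38.9 CPM (0.99 ± 0.25, edgeR adjusted p = 0.00154). The place of microglia-like nuclei, at a pooled 40.6 CPM, depended on the group. They stood at 65.5 CPM in sham, above precursor-like nuclei at 54.1 CPM, and at 9.61 CPM in nephrectomy, below oligodendrocyte-like nuclei at 38.6 CPM. In the 3 neuron classes it lay at 6.25 to 10.6 CPM, and each was lower than the other classes (log2 differences of -1.35 to -2.07). Astrocyte-like nuclei exceeded precursor-like nuclei in 6 of 6 libraries (difference in log2(CPM + 1) of 1.23 ± 0.58 SD, exact sign-flip permutation p = 0.0312, the smallest that 6 libraries can give, and 0.365 after adjustment over the 70 neighbouring pairs compared). The order of the precursor-like, microglia-like and oligodendrocyte-like nuclei did not differ beyond the spread between libraries.

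Tex12, which shares 4507 bases with Il18, gave 25 UMIs in astrocyte-like nuclei and Bco2 gave 16, against the 933 of Il18. After thinning each nucleus to 1000 UMIs, 14.3% ± 2.26 of astrocyte-like nuclei had a UMI of Il18 (SD, n = 6 libraries), and 30.6% ± 4.40 without thinning. In excitatory neuron-like nuclei, which have few Il18 UMIs but a deeper median of 4725 UMIs against 1897, the shares were 0.747% ± 0.515 thinned and 3.59% ± 1.65 unthinned. Thinning left out 195 sham and 58 nephrectomy astrocyte-like nuclei. The thinned share of astrocyte-like nuclei was 13.6% ± 1.99 in sham and 15.0% ± 2.70 in nephrectomy (exact permutation p = 0.5, 2-sided, where 3 libraries against 3 cannot go below 0.1).

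Il33 encodes the alarmin. In oligodendrocyte-like nuclei it stood at 161, 180 and 169 CPM in sham 1 to 3 and at 159, 149 and 211 CPM in nephrectomy 1 to 3, from 806 UMIs. Nephrectomy held both the lowest and the highest of these libraries. The log2 difference from the other classes was 4.78 ± 0.24 (edgeR adjusted p = 7.43e-20). Astrocyte-like nuclei came next, at 27.7, 30.9 and 41.8 CPM in sham and 37.3, 29.3 and 38.1 CPM in nephrectomy, also above the other classes (2.03 ± 0.33, edgeR adjusted p = 3.48e-06). Oligodendrocyte-like nuclei exceeded astrocyte-like nuclei in 6 of 6 libraries (2.30 ± 0.23 SD in log2(CPM + 1), exact sign-flip permutation p = 0.0312, adjusted p = 0.365). Oligodendrocyte precursor-like nuclei, the same lineage before maturation, gave 4 UMIs of Il33 in 563 nuclei, or 3.57 CPM, against 68 UMIs of Il18.

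A UMI of Il33 was found in 15.8% ± 1.85 of oligodendrocyte-like nuclei thinned to 1000 UMIs and in 23.7% ± 3.47 unthinned. In excitatory neuron-like nuclei the thinned share was 0.26% ± 0.214, with medians of 1318 and 4725 UMIs before thinning. The most UMIs of Il33 in 1 nucleus was 7. Between groups, the thinned share of oligodendrocyte-like nuclei was 15.1% in sham and 16.5% in nephrectomy (exact permutation p = 0.5).

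**Figure D2:**
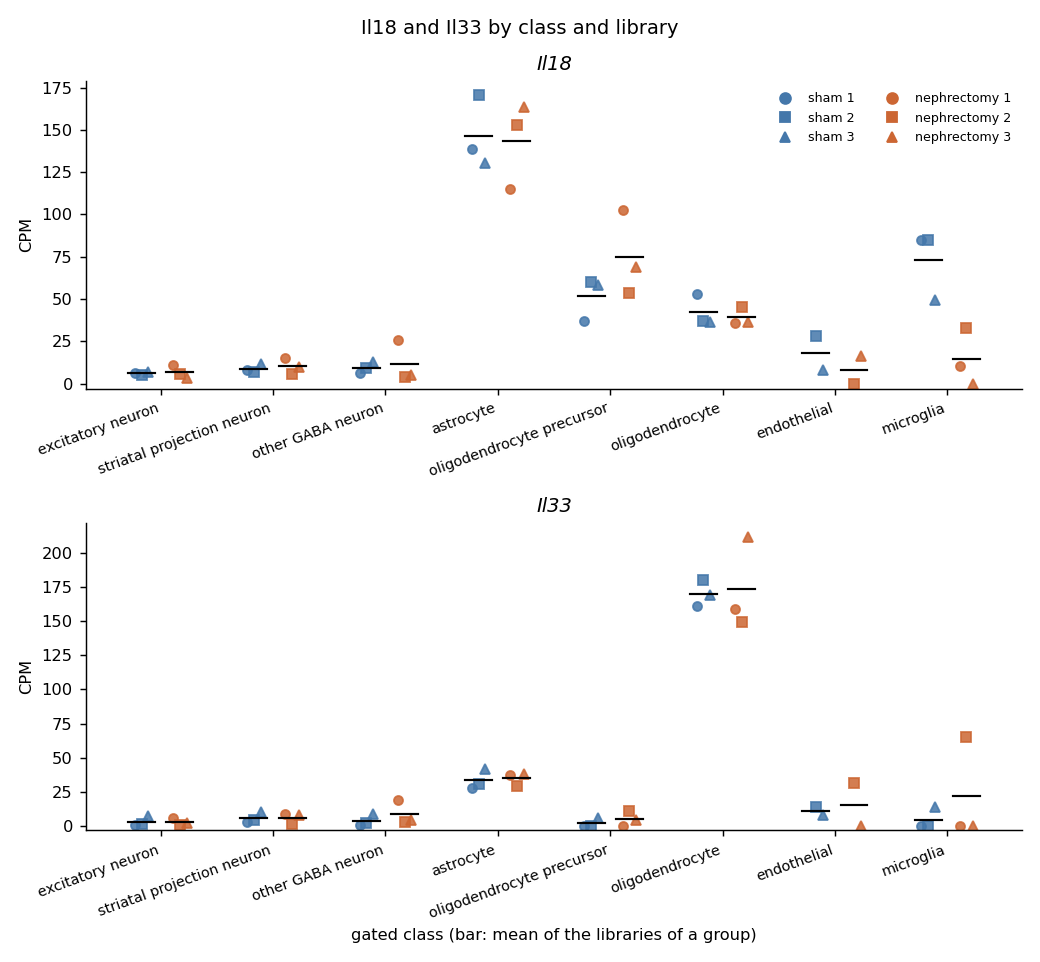
CPM of Il18 (upper panel) and Il33 (lower panel) in each gated class, 1 point per library with at least 20 nuclei in the class, marker shape giving the replicate number and the black bar the mean of a group. The astrocyte-like libraries lie between 115 and 170 CPM for Il18 and the oligodendrocyte-like libraries between 149 and 211 CPM for Il33, with sham and nephrectomy points mixed.

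Nlrp3, the sensor of many danger signals, gave 69 UMIs in all kept nuclei, and 27 of the 35 in gated nuclei were microglia-like. There it stood at 21.2, 28.3 and 56.4 CPM in sham and at 31.0, 97.7 and 124 CPM in nephrectomy, from 1, 2 and 8 and from 3, 3 and 10 UMIs. The 2 highest libraries were nephrectomy, and the lowest nephrectomy library lay among the sham libraries. The log2 difference from the other classes was 8.48 ± 0.60 (edgeR adjusted p = 4.76e-16). No other class gave more than 3 UMIs. Oligodendrocyte-like, precursor-like, endothelial-like and other GABA neuron-like nuclei gave 0, which allows up to 0.644, 2.68, 9.39 and 0.238 CPM.

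Aim2, the sensor of cytosolic DNA, stood at 233, 127 and 106 CPM in sham and at 103, 97.7 and 112 CPM in nephrectomy microglia-like nuclei, from 57 UMIs. Sham 1, with 11 UMIs in 23 nuclei, was the highest. Microglia-like nuclei were above the other classes by 4.57 ± 0.39 on the log2 scale (edgeR adjusted p = 4.23e-15). Oligodendrocyte-like nuclei were also above them (2.39 ± 0.30, edgeR adjusted p = 9.93e-10) and gave more UMIs, 121 in all, at 0, 37.3 and 32.4 CPM in sham and 12.3, 34.6 and 24.4 CPM in nephrectomy. The oligodendrocyte-like nuclei of sham 1 thus gave no UMI, where 3 UMIs would have been 7.55 CPM. Astrocyte-like, excitatory neuron-like and precursor-like nuclei were below the other classes. Cadm3, which covers part of the Aim2 locus on the other strand, ran in another order, at 120 CPM in excitatory neuron-like nuclei, where Aim2 was at 1.22 CPM, and at 44.9 CPM in microglia-like nuclei.

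Pycard, the adaptor, was the member with the widest spread over classes. In microglia-like nuclei it stood at 170, 311 and 310 CPM in sham and at 217, 195 and 323 CPM in nephrectomy, from 127 UMIs. The log2 difference from the other classes was 2.95 ± 0.19 (edgeR adjusted p = 8.65e-21), and microglia-like nuclei were above the next class in 6 of 6 libraries. These nuclei held only 4.77% of the Pycard UMIs of gated nuclei, since the neuron classes are far larger. Striatal projection neuron-like, other GABA neuron-like and excitatory neuron-like nuclei stood at 39.2, 38.6 and 33.1 CPM, and neighbours among them did not differ beyond the spread between libraries. Of striatal projection neuron-like nuclei thinned to 1000 UMIs, 3.74% ± 1.24 had a UMI, against 22.8% ± 9.89 of microglia-like nuclei. Astrocyte-like, oligodendrocyte-like and precursor-like nuclei were lower than the other classes (-0.61 ± 0.17, -1.08 ± 0.20 and -1.03 ± 0.29 on the log2 scale).

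Gsdmd, the pore former, stood at 170, 212 and 169 CPM in sham and at 196, 261 and 211 CPM in nephrectomy microglia-like nuclei, from 91 UMIs. The log2 difference from the other classes was 7.28 ± 0.32 (edgeR adjusted p = 1.2e-27). Casp8 stood there at 21.2, 98.9 and 106 CPM in sham and at 51.7, 130 and 261 CPM in nephrectomy, from 53 UMIs (6.64 ± 0.39, edgeR adjusted p = 9.56e-22). Each group of Casp8 held a low library, sham 1 and nephrectomy 1, and nephrectomy 3 was the highest. Both genes were also above the other classes in endothelial-like nuclei, Casp8 by 5.64 ± 0.58 (edgeR adjusted p = 4.02e-12, 19 UMIs in the libraries tested) and Gsdmd by 4.44 ± 0.71 (edgeR adjusted p = 1.17e-06). In the 4 libraries with at least 20 endothelial-like nuclei, microglia-like nuclei were above endothelial-like nuclei in 4 of 4 for both genes, where the sign-flip test cannot go below 0.125.

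Casp1 and Casp4, the caspases of the canonical and the noncanonical route, were thinly sampled. In microglia-like nuclei, Casp1 gave 0, 3 and 3 UMIs in the sham libraries and 0, 0 and 1 in the nephrectomy libraries, and Casp4 gave 3, 1 and 2 and 0, 1 and 1. Both were above the other classes (4.19 ± 0.90, edgeR adjusted p = 0.000194, and 5.84 ± 0.86, edgeR adjusted p = 3.01e-07). In nephrectomy libraries alone the Casp1 difference was 2.50 and did not pass (edgeR adjusted p = 0.489). Casp4 was at a pooled 17.1 CPM in microglia-like and 15.6 CPM in endothelial-like nuclei. Microglia-like nuclei were higher in 3 of 4 libraries, where the sign-flip test cannot go below 0.125. Endothelial-like nuclei were also above the other classes (5.48 ± 1.13, edgeR adjusted p = 0.000158). That fit rests on 4 UMIs in the sham libraries tested and 0 in the nephrectomy libraries tested, of 5 in all endothelial-like nuclei.

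Il1b, the cytokine named in the series title, gave 48 UMIs in the 40685 kept nuclei, 24 in each group. By library these were 2, 5 and 17 in sham and 13, 5 and 6 in nephrectomy, or 0.125 to 0.416 CPM. The 400 microglia-like nuclei gave none, which allows up to 11.6 CPM in sham and 14.4 CPM in nephrectomy. Differences of Il1b under about those levels were not detectable in that class. By pooled CPM its highest class was astrocyte-like nuclei, which exceeded excitatory neuron-like nuclei in only 2 of 6 libraries (exact sign-flip permutation p = 0.938). Microglia-like nuclei, with a limit of 6.41 CPM over all libraries, cannot be ranked below the 0.775 CPM of astrocyte-like nuclei. Astrocyte-like nuclei held 5 UMIs in sham (4 of them in sham 3) and 0 in nephrectomy. With the count of 0 set at 3 UMIs over the group, nephrectomy was 1.18-fold lower. The exact 95% interval of the pooled ratio, from 0 to 1.54, includes 1. Il1bos, an antisense gene that shares 1243 bases with Il1b, also gave 5 UMIs in astrocyte-like nuclei.

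Across the 46 sums per library and class, the genes whose log2(CPM + 1) ran most like a member's were described by Pearson's r over 13428 candidate genes. These sums share libraries, depth and the class gate, and r is a description only. Il18 ran most like Asrgl1 (0.889), Slc1a3 (0.825, a gene of the astrocyte panel) and Washc2 (0.795). Il33 ran most like Olfml1 (0.823), Gm12326 (0.818) and Myo6 (0.797). Gsdmd ran most like Tgfb1 (0.971), Inpp5d (0.952, a gene of the microglia panel) and Abi3 (0.952), and Casp8 like Mfng (0.960), Anxa3 (0.957) and Trim30a (0.952). Aim2 ran most like Lcp1 (0.841), Adap2 (0.838) and Mbnl1 (0.832), and Pycard like Slc7a8 (0.855), Arrb2 (0.852) and Plek (0.840). Nlrp3, Casp1, Casp4 and Il1b gave too few UMIs in gated nuclei for this description.

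No member passed the test of nephrectomy against sham in any class. Within each class the sums per library were compared with edgeR's quasi-likelihood test, 2-sided, with adjustment over all genes tested in that class. Over the classes, 20 member and class pairs passed the low-count filter, and 0 were called (0 at an unadjusted p under 0.05, and 0 by DESeq2 or limma-voom). Their log2 fold changes ran from -0.44 to 0.60, 10 lower and 10 higher, with adjusted p from 0.874 to 0.999. The background was as low: 0.0% of genes were called in astrocyte-like, oligodendrocyte-like, microglia-like, precursor-like and all 3 neuron classes, with 4.10% to 5.67% at an unadjusted p under 0.05, and 0.482% (7 of 1451) in endothelial-like nuclei. A p that misses the threshold does not show that the groups were alike, and fewer cells of a type and less RNA per cell cannot be told apart in sums over all nuclei.

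For Il18 and Il33 in their highest classes the intervals were narrow. The log2 fold change of Il18 in astrocyte-like nuclei was -0.09 ± 0.20 (edgeR adjusted p = 0.977), and the ratio of pooled CPM, which weights libraries by their UMIs, was 1.04 with an exact 95% interval from 0.915 to 1.19. That of Il33 in oligodendrocyte-like nuclei was -0.01 ± 0.21 (edgeR adjusted p = 0.999), with a pooled ratio of 1.04 (0.902 to 1.2). Elsewhere the errors were wider. The remaining filtered fits of Il18 ran from -0.11 ± 0.29 in oligodendrocyte-like to 0.45 ± 0.41 in precursor-like nuclei. Those of Il33 were -0.05 ± 0.26 in astrocyte-like, -0.11 ± 0.80 in excitatory neuron-like and 0.06 ± 0.57 in striatal projection neuron-like nuclei. In the other GABA neuron-like nuclei Il18 stood at 0.28 ± 0.69, where nephrectomy 1 was at 25.6 CPM and the other 5 libraries at 3.95 to 12.6 CPM, and without nephrectomy 1 it was -1.10. That library also had the most nuclei of this class, 1512 of 5037. Il33 ran there from 0.792 to 9.0 CPM in sham and from 3.07 to 19.1 CPM in nephrectomy, again with nephrectomy 1 highest. Its pooled ratio was 1.89 (exact 95% interval 1.19 to 3.06, counting error only), and the libraries of the groups overlapped.

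For the inflammasome genes in microglia-like nuclei the errors were wide. Pycard stood at -0.09 ± 0.34 (edgeR adjusted p = 0.995) and Gsdmd at 0.26 ± 0.37 (edgeR adjusted p = 0.986). The others lay under the filter and were fitted without it. Nlrp3 stood at 0.82 ± 0.73, with a pooled ratio of 1.82 (0.791 to 4.33), and Casp8 at 0.68 ± 0.54, with 1.63 (0.915 to 2.94). Aim2 stood at -0.54 ± 0.53 (0.785, 0.439 to 1.38), Casp1 at -2.03 ± 1.37 (0.208, 0.00452 to 1.71) and Casp4 at -1.27 ± 1.22 (0.416, 0.0411 to 2.33). The adjusted p of these 5 was 0.81 in edgeR, and each interval includes 1. Without nephrectomy 3, which held 21 of its 30 nephrectomy UMIs, Casp8 turned to -0.27, and without sham 3 and nephrectomy 1 it was 1.56. The others moved widely with the settings: Nlrp3 from 0.18 without nephrectomy 3 to 2.00 without sham 3 and nephrectomy 1, Casp1 from -3.96 to -0.77, Casp4 from -1.82 to -0.14 and Aim2 from -1.04 to -0.19.

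**Figure D3:**
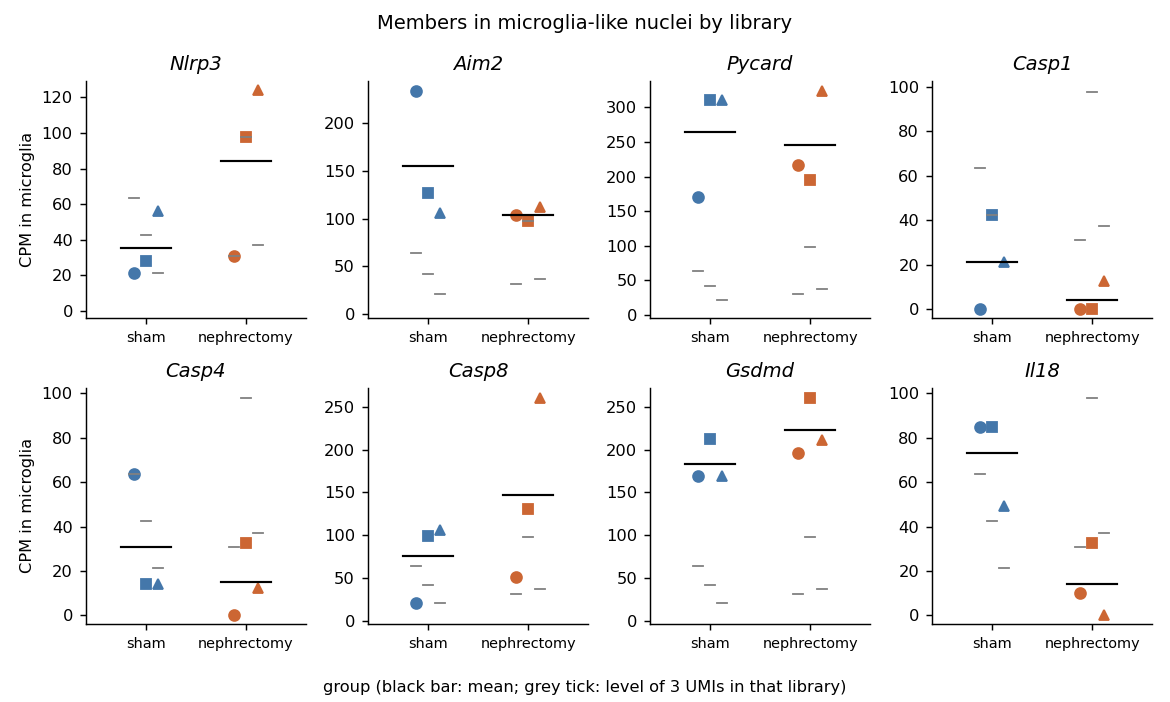
CPM of 8 genes in microglia-like nuclei, 1 point per library (shape: replicate number), with the group mean as a black bar and the level of 3 UMIs in that library as a grey tick. Sham and nephrectomy libraries overlap for all but Il18, and all points of Casp1 and Casp4 lie at or under the grey ticks.

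Il18 in microglia-like nuclei, named after its values were seen, was the 1 member and class pair of at least 10 UMIs that was lower in every nephrectomy library than in every sham library. It stood at 84.9, 84.8 and 49.4 CPM in sham, from 4, 6 and 7 UMIs, and at 10.3, 32.6 and 0 CPM in nephrectomy, from 1, 1 and 0. The groups do not overlap, as for 10.1% of genes with at least 10 UMIs in this class. Unthinned, 10.2% ± 6.53 of sham and 1.82% ± 1.79 of nephrectomy microglia-like nuclei had a UMI of Il18 (SD, n = 3 libraries each, exact permutation p = 0.1). At matched depth the shares of the groups overlapped, but those of nephrectomy rest on 2 UMIs in all and cannot rank the groups. Thinned to 1000 UMIs, which left out 150 sham and 81 nephrectomy nuclei, the shares were 5.12% ± 2.36 and 3.03% ± 5.25 (exact permutation p = 0.6). Thinned to 2000 UMIs, which left 2 to 20 nuclei a library, the order turned, to 12.2% ± 10.7 and 18.3% ± 27.5 (exact permutation p = 0.9). The highest nephrectomy library behind the 18.3% was at 50%. Over all nuclei of the class, the pooled ratio was 0.147 (exact 95% interval 0.0165 to 0.619) and the exact permutation p was 0.1, the smallest that 3 against 3 allow. Fitted without the filter, it had a log2 fold change of -2.71 ± 1.00 and missed the threshold (edgeR unadjusted p = 0.0068, adjusted p = 0.81). Over the other settings it ran from -3.27 to -0.58. This direction was known from earlier results of these data, so that it is no independent support.

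Values of other cell types in the same nuclei are given beside it. The astrocyte panel summed to 408 CPM in sham (191 to 501 by library) and 457 CPM in nephrectomy (323 to 586), against 7634 CPM in sham astrocyte-like nuclei. The border macrophage panel summed to 308 CPM (212 to 452) and 327 CPM (227 to 619), and the red blood cell genes to 439 CPM (56.4 to 1328) and 135 CPM (103 to 195). The lymphocyte panel gave 2 and 1 UMIs and the neutrophil or monocyte panel 0 and 1. Bco2, which shares 355 bases with Il18 on the other strand, had 8 UMIs in the sham and 6 in the nephrectomy libraries of this class. The part of each in the Il18 result was not tested.

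Of the 36 member and class pairs with at least 10 UMIs, the groups did not overlap in 4, of which Il18 in microglia-like nuclei was lower in nephrectomy and 3 were higher. These were named after their values were seen. No member with at least 10 UMIs did so in astrocyte-like, oligodendrocyte-like, precursor-like or other GABA neuron-like nuclei, where 9.8%, 9.1%, 10.0% and 9.84% of all genes did. Il1b in excitatory neuron-like nuclei gave 0, 1 and 1 UMIs in sham and 3, 3 and 2 in nephrectomy (pooled ratio 4.33, exact 95% interval 0.865 to 41.9), where 11.3% of genes did not overlap. The lymphocyte panel ran there from 7.08 to 9.27 CPM in sham and from 12.5 to 14.5 CPM in nephrectomy, and its part was not tested. Casp1 in striatal projection neuron-like nuclei gave 1, 0 and 0 UMIs in sham and 6, 1 and 2 in nephrectomy (pooled ratio 9.87, interval 1.37 to 433), where 10.2% did not overlap. The lymphocyte panel ran there from 1.67 to 2.13 CPM in sham and from 0.965 to 14.0 CPM in nephrectomy, and its part was not tested. Casp8 in endothelial-like nuclei stood at 56.4 and 41.5 CPM in sham 2 and 3 and at 94.3 and 115 CPM in nephrectomy 2 and 3 (pooled ratio 2.29, interval 0.836 to 6.36), where 33.3% of genes did not overlap between 2 and 2 libraries. Over all endothelial-like nuclei, red blood cell genes summed to 1574 CPM in sham (166 to 2424 by library) and 68.9 CPM in nephrectomy (16.4 to 129), and the mural panel to 634 CPM (490 to 1580) and 1171 CPM (129 to 1588). The part of either in the Casp8 values was not tested.

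**Figure D4:**
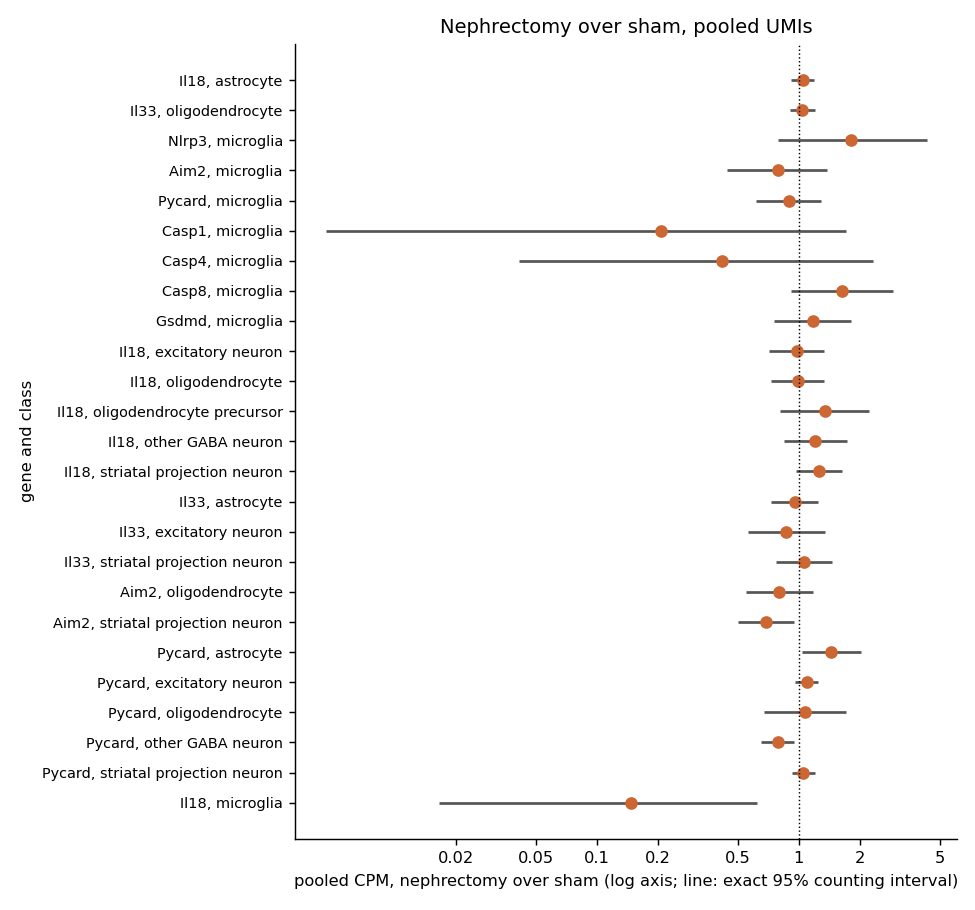
Ratio of pooled CPM, nephrectomy over sham (log axis), with exact 95% counting intervals as lines and a dotted line at 1. Each member is drawn in its class of highest pooled CPM and in other tested classes where it passed the filter with at least 50 UMIs. Il18 in microglia-like nuclei is added. Il1b in astrocyte-like nuclei, with 0 nephrectomy UMIs, is not drawn. Neither are Il1b in excitatory neuron-like, Casp1 in striatal projection neuron-like, Casp8 in endothelial-like and Il33 in other GABA neuron-like nuclei. The intervals of Il18 and Il33 in their highest classes lie between 0.902 and 1.2. Below 1 lie those of Il18 in microglia-like, Pycard in other GABA neuron-like and Aim2 in striatal projection neuron-like nuclei. Among the pairs drawn, that of Pycard in astrocyte-like nuclei lies above 1. All intervals cover counting error only.

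Pycard outside microglia-like nuclei stood at 0.60 ± 0.35 in astrocyte-like nuclei (edgeR adjusted p = 0.938), the highest of the filtered fits, at 5.54, 18.9 and 23.3 CPM in sham and 21.8, 35.2 and 27.1 CPM in nephrectomy. Sham 1 was the lowest, from 3 UMIs. In the other GABA neuron-like nuclei it stood at -0.39 ± 0.32 (edgeR adjusted p = 0.874). In excitatory and striatal projection neuron-like nuclei it stood at 0.10 ± 0.27 and 0.07 ± 0.27, and without sham 1 at -0.19 and -0.23. Aim2 stood at -0.16 ± 0.60 in oligodendrocyte-like and -0.44 ± 0.55 in striatal projection neuron-like nuclei, where it ran from 1.95 to 12.4 CPM in sham and from 4.67 to 9.65 CPM in nephrectomy.

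Sham 1 was the lowest library for most members. Over all kept nuclei it was the lowest of the 6 for 8 of the 10, all but Casp1 and Casp4. Among the 8, Il1b and Nlrp3 gave only 48 and 69 UMIs over all libraries. The share of all genes that were lowest in sham 1 was not computed. Neither this count nor the one within classes below can thus be read as particular to the members. Pycard was at 19.0 CPM in sham 1 and at 33.2 to 45.1 CPM in the other libraries, Casp8 at 0.188 against 1.12 to 2.81 CPM, and Aim2 at 2.25 against 4.29 to 9.53 CPM. Sham 1 also had the fewest nuclei (2566) and the highest median UMI count, and the largest share of gated nuclei (80.1%). Within classes it was the lowest for 12 of the 22 pairs with at least 50 UMIs in 6 libraries. It had 23 microglia-like nuclei, 1.12% of its gated nuclei, against 0.946% to 2.65% in the other libraries, and 7.73% oligodendrocyte-like nuclei against 7.18% to 15.2%. The part of these differences in the member levels was not tested.

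Without the gate, pooled over all kept nuclei, the ratio of nephrectomy to sham was 0.910 for Il18 (0.852 to 0.972), 0.889 for Il33 (0.825 to 0.958), 0.958 for Pycard (0.909 to 1.01), 0.647 for Aim2 (0.567 to 0.737), 0.777 for Gsdmd (0.629 to 0.958), 0.525 for Casp4 (0.297 to 0.905) and 1.79 for Nlrp3 (1.07 to 3.07). These intervals cover counting error only. The libraries of the groups overlapped for all 10 members, where 11.9% of genes did not overlap, and 0 of 18397 genes were called in edgeR (910 at an unadjusted p under 0.05). For Aim2, sham libraries stood at 2.25, 9.53 and 9.51 CPM and nephrectomy libraries at 4.92, 6.42 and 4.29 CPM, so that sham held both the lowest and the highest values. Nlrp3 stood at 0.0626, 0.256 and 0.465 CPM in sham and at 0.513, 0.405 and 0.868 CPM in nephrectomy.

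Other genes of the pathway were described from lists of names chosen with earlier results of these data known. As for the members, a gene high in 1 class can pass the low-count filter through that class alone. The counts of genes past the filter, given for each list below, thus support nothing by themselves. Of 19 inflammasome sensors and regulators, 11 passed the filter in the comparison of classes, and 9 were higher in microglia-like nuclei against the background of 12.3%. They included Nlrp1b, another sensor (9.28 ± 0.43 on the log2 scale, edgeR adjusted p = 2.12e-24), and Naip6 and Naip2, which recognise bacterial proteins for the NLRC4 inflammasome (8.55 ± 0.40 and 8.07 ± 0.63). In endothelial-like nuclei 5 of the 11 were higher (background 12.1%), led by Trim30a, and in excitatory neuron-like nuclei 4 were lower and 1, Nlrc3, was higher, against backgrounds of 21.1% and 33.9%. Of 8 genes of ATP and potassium triggers, 7 passed the filter and 5 were higher in microglia-like nuclei (background 12.3%), among them the potassium channel gene Kcnk6 (5.34 ± 0.36) and P2rx7, the ATP-gated channel (3.37 ± 0.29). P2rx7 was also higher in precursor-like (2.64 ± 0.25) and oligodendrocyte-like nuclei (1.13 ± 0.22).

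Among 11 ligands and inhibitors of the interleukin-1 family list, 2 passed the filter. Il1a was higher in microglia-like nuclei (6.45 ± 0.61, edgeR adjusted p = 6.60e-13), and Il18bp, which encodes the soluble inhibitor of interleukin-18, was higher in all 3 neuron classes, by 0.81 ± 0.14 in striatal projection neuron-like nuclei. Of 10 receptors, 6 passed. Il1rap, the co-receptor that interleukin-1 and interleukin-33 share, was higher in oligodendrocyte-like nuclei (2.33 ± 0.13, edgeR adjusted p = 6.12e-23) and also in excitatory neuron-like (1.12 ± 0.12) and precursor-like nuclei (1.10 ± 0.19, edgeR adjusted p = 5.31e-06), and Il1r1 and Sigirr were higher in endothelial-like nuclei (3.98 ± 0.94 and 8.09 ± 0.84). Among 19 caspases and cell death partners, 14 passed and 6 were higher in microglia-like nuclei, led by Casp12 (background 12.3%), and Cflar, an inhibitor of caspase-8, was at 3.44 ± 0.23. Gsdme, another gasdermin, was higher in striatal projection neuron-like (1.53 ± 0.11) and astrocyte-like nuclei (1.18 ± 0.12). Of 20 priming and signalling genes, 19 passed, 8 were higher in microglia-like nuclei, led by Tlr4 (7.64 ± 0.61, background 12.3%), and Irak2 was higher in astrocyte-like nuclei (3.02 ± 0.15).

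Between nephrectomy and sham, none of these pathway genes passed the edgeR test in any class. Each list is described over all classes in which it had a measured gene. These classes share libraries, and in each 48.5% to 51.3% of all tested genes were lower. The medians over all genes lay between -0.01 and 0.01 on the log2 scale. The median of the sensors and regulators ran from -0.60 to -0.0048 over 7 classes, and 15 of 22 gene and class fits were lower. The lowest of these medians was 1 gene, Txnip in endothelial-like nuclei. The triggers ran from -0.18 to 0.19 over 7 classes, with 18 of 26 lower, all 7 of 7 in excitatory neuron-like and 2 of 5 in other GABA neuron-like nuclei. The caspases and partners ran from -0.30 (1 gene, Xiap in endothelial-like nuclei) to 0.12 over 8 classes, with 33 of 62 lower. The priming genes ran from -0.36 to 0.15 over 8 classes, with 64 of 83 lower, including 5 of 5 in microglia-like, 11 of 12 in oligodendrocyte-like and 1 of 4 in endothelial-like nuclei. The receptors ran from -0.35 to 0.30 over 6 classes, with 12 of 16 lower. The ligands and inhibitors were lower in 5 of 5 fits, all of them of Il18bp. Of single genes, Nlrp1b stood at -0.42 ± 0.44 and Irak1, a kinase below the interleukin-1 receptor, at -0.52 ± 0.41 in microglia-like nuclei (edgeR adjusted p = 0.986 for both). Irak1 stood at -0.61 ± 0.26 in oligodendrocyte-like nuclei (edgeR adjusted p = 0.988). In excitatory neuron-like nuclei Il1r1, the receptor of interleukin-1, stood at 0.97 ± 0.43 (edgeR adjusted p = 0.849). Cycs, cytochrome c, stood at 0.73 ± 0.17 there and at 0.81 ± 0.28 in astrocyte-like nuclei (edgeR adjusted p = 0.849 and 0.938).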

How the data were processed

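Nuclei of 6 libraries were analysed as raw UMI counts. The deposited counts were made by the authors with Cell Ranger (3.0 per the labels' protocols, 2.1.1 per the submitters' processing notes, 6.0.1 per the file headers) on mm10 with introns included, per the labels' protocols, and hold no barcode under 500 UMIs. Barcodes under 500 genes or over 5% mitochondrial UMIs were left out. A class needed at least 3 UMIs from at least 2 genes of its panel and 3 times those of any other panel. This gate on raw UMIs leaves out deep nuclei that hold stray UMIs of another panel. Scrublet scores marked 3159 barcodes as doublets, at an assumed 0.8% per 1000 barcodes, and leaving these out was an alternative.

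Sums per library and class entered edgeR 4.0.16 (robust quasi-likelihood test after TMM and filterByExpr, Benjamini-Hochberg adjustment) where at least 2 libraries per group held 20 nuclei, and checked with DESeq2 1.42.0 and limma 3.58.1 in R 4.3.3. An SE is the log2 fold change divided by the square root of its F statistic. Pooled ratios have exact 95% intervals. Shares of nuclei used thinning to 1000 UMIs in Python 3.11.15 with numpy 2.4.6, scipy 1.17.1, pandas 2.3.3 and scanpy 1.11.5. The fits of nephrectomy against sham were tested on simulated counts with genes changed by a known fold. Of 2-fold changes they recovered 12.9% in microglia-like, 29.1% in oligodendrocyte-like and 42.6% in astrocyte-like nuclei. Of 4-fold changes they recovered 96.3%, 97.8% and 97.2%. Most 2-fold changes would thus be missed. The changed genes were drawn from those past the low-count filter. These rates therefore do not apply to members fitted without it, among them Nlrp3, Aim2, Casp1, Casp4, Casp8 and Il18 in microglia-like nuclei. Each member is named in its class of highest pooled CPM and in other tested classes where it passed the filter with at least 50 UMIs, and of each pathway list up to 3 genes per class that passed, or else the 2 with the lowest p. Genes most like a member are the 3 of highest r, for members of at least 100 UMIs. The members and lists were chosen with earlier results of these data known. The numbers 1 to 3 of sham and nephrectomy share no animal or batch in the labels and were not paired.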

Additional observations from a re-analysis of the deposited data

How the results depend on the processing

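No member passed in nephrectomy against sham under any setting run. The number of genes called moved without the low-count filter (2 in astrocyte-like, 4 in microglia-like, 1 in precursor-like and 3 in endothelial-like nuclei, where the main count was 7). In endothelial-like nuclei it was 2 with DESeq2, 1 with limma-voom, 3 in the 4 libraries with short barcode lists, 0 with the stricter and 2 with the looser gate, 4 with panels scaled to their mean (a gate added after seeing the data) and 4 without called doublets. In microglia-like nuclei it was 1 with DESeq2, 2 in the 4 libraries and 3 with the stricter gate, and in precursor-like nuclei 1 in the 4 libraries. Leaving out 1 library gave 0 (without nephrectomy 3) to 19 (without sham 2) genes in endothelial-like, 0 to 2 in microglia-like (2 without sham 1 or nephrectomy 1) and 0 to 1 in precursor-like nuclei (1 without sham 3, nephrectomy 1 or nephrectomy 3). The cause was not tested.

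The replicate numbers did not pair the libraries, since numbers 1 to 3 in sham and nephrectomy deviated together with r between -0.34 and 0.29. With the number as a replicate block, 4 genes were called in microglia-like and 5 in endothelial-like nuclei, and 3 of the small log2 fold changes turned sign: Il18 in other GABA neuron-like nuclei (-0.031), Il33 in excitatory neuron-like nuclei (0.14) and Aim2 in oligodendrocyte-like nuclei (0.10).

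The log2 fold changes that turned sign were all short of the threshold. Leaving out 1 library, Il18 ran from -0.22 to 0.050 in astrocyte-like, -0.57 to 0.34 in excitatory neuron-like, -0.27 to 0.096 in oligodendrocyte-like, -1.10 to 0.73 in other GABA neuron-like and -0.18 to 0.44 in striatal projection neuron-like nuclei. Il33 ran from -0.21 to 0.10 in oligodendrocyte-like, -0.13 to 0.14 in astrocyte-like, -0.83 to 1.49 in excitatory neuron-like and -0.25 to 0.85 in striatal projection neuron-like nuclei. Aim2 in oligodendrocyte-like nuclei ran from -0.55 to 0.15. Pycard ran from -0.33 to 0.083 in microglia-like, -0.19 to 0.43 in excitatory neuron-like, -0.059 to 0.42 in oligodendrocyte-like and -0.23 to 0.31 in striatal projection neuron-like nuclei, and Casp8 in microglia-like nuclei from -0.27 to 1.18. Without turning sign, Nlrp3 in microglia-like nuclei ran from 0.18 (without nephrectomy 3) to 2.00 (in the 4 libraries), Casp1 from -3.96 (without nephrectomy 3) to -0.77 (scaled gate), Casp4 from -1.82 (without nephrectomy 2) to -0.14 (scaled gate) and Aim2 from -1.04 (scaled gate) to -0.19 (without sham 1).

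Other settings turned the sign as follows. With the scaled gate, Il18 was 0.013 in astrocyte-like, 0.14 in oligodendrocyte-like and -0.37 in precursor-like nuclei, Gsdmd in microglia-like nuclei was -0.13, and Pycard in striatal projection neuron-like nuclei was -0.085. With the looser gate, Pycard was 0.035 in microglia-like and -0.020 in oligodendrocyte-like nuclei, Il18 0.14 in excitatory neuron-like and -0.083 in precursor-like nuclei, and Il33 0.032 in excitatory neuron-like and -0.085 in striatal projection neuron-like nuclei. With the stricter gate, Il33 was 0.049 in oligodendrocyte-like and -0.28 in striatal projection neuron-like nuclei, and without called doublets 0.029 in oligodendrocyte-like nuclei. In the 4 libraries, Il33 was 0.024 in oligodendrocyte-like and 0.11 in astrocyte-like nuclei, Pycard 0.10 in microglia-like and 0.0077 in other GABA neuron-like nuclei, Il18 -0.79 in other GABA neuron-like nuclei, and Aim2 0.38 in oligodendrocyte-like and 0.19 in striatal projection neuron-like nuclei. From at least 1000 genes per nucleus, Il18 was 0.22 in oligodendrocyte-like and -0.55 in other GABA neuron-like nuclei and Il33 -0.14 in striatal projection neuron-like nuclei. With limma-voom, Il18 in other GABA neuron-like nuclei was -0.23, Il33 0.18 in excitatory neuron-like and -0.0034 in striatal projection neuron-like nuclei, and Aim2 in oligodendrocyte-like nuclei 0.095. With DESeq2, Il18 in excitatory neuron-like nuclei was 0.0045 and Aim2 in oligodendrocyte-like nuclei 0.011. The cause was not tested.

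The class that held each member kept its call under the settings in which the gene passed the filter, 8 for most but 5 for Nlrp3 and 4 for Casp1 and Casp4, except Casp1 in microglia-like nuclei in nephrectomy libraries only (2.50). Shares of nuclei with a UMI depend on the depth and on which nuclei reach it: unthinned and thinned to 2000 UMIs they were 30.6% and 24.7% for Il18 in astrocyte-like, 23.7% and 18.9% for Il33 in oligodendrocyte-like and 23.0% and 6.94% for Gsdmd in microglia-like nuclei, of which few reach 2000 UMIs. At 1000 genes or more, nephrectomy was not compared with sham in microglia-like and endothelial-like nuclei, and endothelial-like nuclei left the comparison of classes, since too few libraries held 20 such nuclei. Microglia-like nuclei entered the comparison of classes there from 1 library, in which, without the filter, Casp1 (-2.89) and Casp4 (-0.93) were not higher. Depth limits the endothelial-like and microglia-like values, from 319532 UMIs in 261 and 467725 UMIs in 400 nuclei.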
